A study of Rattus norvegicus and Mus musculus with 25 samples.

Results

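Olr1 and 5 other scavenger receptor genes, Msr1, Scarb1, Scarb2, Stab1 and Colec12, were described in cultured rat and in mouse heart muscle cells whose level of the lipoprotein receptor VLDLR, or of a protein that binds it, had been altered. The 6 genes were found by symbol, and all 6 were present in each table, out of 28905 uniquely named genes in rat and 54083 in mouse. Olr1 had been selected on its measured CPM in the rat Vldlr knockdown, where it was higher than in the control, so its values in that contrast, and those of the other 5 genes beside it, are given as a description with no test. All 6 genes passed the filter on low values in the 3 tables.

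Scavenger receptors are membrane proteins that bind modified lipoproteins, dying cells and other charged ligands and carry them into the cell. OLR1, also called LOX-1, is a lectin-like protein of the C-type that binds oxidised low density lipoprotein. It is best known from endothelial cells, smooth muscle cells and macrophages, where ligand binding activates NF-kappaB and raises adhesion molecules and chemokines. VLDLR belongs to another receptor family. It takes up triglyceride-rich lipoproteins and is also a signalling receptor for the secreted proteins reelin and thrombospondin-1.

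RNA sequencing covered 25 libraries. The 16 rat libraries, 2 per group, came from ventricular cardiomyocytes of 1-day-old SD rats, pre-plated to remove faster-attaching cells. The groups were si-Vldlr against si-Control_v, and si-Thbs1 against si-Control_t (siRNA at 50 nM for 60 h), Reelin against PBS (48 h), and Vldlr OE against Control (72 h). The treatment text gives the overexpression vector as AAV9-cTnT-Vldlr, driven by the cardiac troponin T promoter, and its comparator as AAV9-CMV-GFP, while the Control label names no virus. The 2 columns taken as Control carry a name found in no label and were placed there because no other group was left, which bears on every Vldlr OE comparison below. The 9 mouse libraries, 3 per genotype, came from cardiomyocytes of 1-day-old C57BL/6 animals of the genotypes Myh6-Cre;Vldlr f/f, Myh6-Cre;Vldlr f/+ and Vldlr f/f. Every mouse genotype carries floxed Vldlr, Cre is driven by the cardiomyocyte promoter of Myh6 so that other cells of a preparation keep the gene, and no group has Cre without a floxed allele. Whether the libraries of a group stem from separate cultures or animals is not stated, so the p-values rest on a library-to-library spread that could be technical only.

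Levels are in CPM, a unit that scales every library to the same total, as deposited by the authors. Differences are log2 fold changes computed from CPM + 1, an offset that shrinks the differences of genes with low values. A gene was called at a limma adjusted p under 0.05 over all genes of its table. Read numbers are unknown, since the values are CPM; nearly all were whole multiples of a smallest step, with 66088372 to 97773385 steps in a library, and what a step is in reads is not known. Vldlr was 183.0 and 171.2 CPM in si-Vldlr cells against 252.5 and 257.1 CPM in si-Control_v, and 656.5 and 888.7 CPM in Vldlr OE against 576.6 and 379.0 CPM in Control. It was 71.33, 78.89 and 85.11 CPM in Myh6-Cre;Vldlr f/f, 98.43, 111.9 and 100.2 CPM in Myh6-Cre;Vldlr f/+ and 194.8, 108.5 and 164.1 CPM in Vldlr f/f. Thbs1 was 744.6 and 545.9 CPM in si-Thbs1 against 943.5 and 892.1 CPM in si-Control_t. The groups of each of these comparisons were separate, except that Vldlr in Myh6-Cre;Vldlr f/+ replicate 2 exceeded Vldlr f/f replicate 2. The sum over 8 cardiomyocyte markers was 12450 to 20780 CPM in the 12-library rat table, where 9 fibroblast markers summed to 33770 to 46490 CPM. Collagen genes made up most of that fibroblast sum, with medians of 21610 CPM for Col1a1, 9159 for Col3a1 and 5736.5 for Col1a2. The next highest fibroblast marker, Postn, had a median of 1036.5 CPM. In mouse the same 8 markers summed to 36700 to 47750 CPM and the fibroblast markers to 3040 to 5751 CPM. Macrophage markers were mixed in the 12-library rat table. Lyz2 had 304 to 845.8 CPM, Adgre1 69.19 to 165.3 CPM, Csf1r 17.81 to 58.2 CPM and Mrc1 12.97 to 38.59 CPM. At the low end, Cx3cr1 was at most 1.14 CPM, C1qc 1.101 CPM, C1qb 0.7159 CPM and Cd163 0.0409 CPM. In bulk libraries, fewer cells of a type and less RNA per cell cannot be told apart.

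The stretch of the rat Olr1 promoter below is shown because Olr1 had the largest fold change of the 6 genes in si-Vldlr. It is taken from RefSeq on build GRCr8, which is not the authors' build, at chr4:164634498-164634797 on the minus strand, and holds 250 bases before and 50 bases after the gene start. RefSeq promoters were matched for 4 of the 6 genes, Olr1 among them. Capitals mark matches to motifs that were chosen after the sequence had been seen, each sought on both strands.
Olr1: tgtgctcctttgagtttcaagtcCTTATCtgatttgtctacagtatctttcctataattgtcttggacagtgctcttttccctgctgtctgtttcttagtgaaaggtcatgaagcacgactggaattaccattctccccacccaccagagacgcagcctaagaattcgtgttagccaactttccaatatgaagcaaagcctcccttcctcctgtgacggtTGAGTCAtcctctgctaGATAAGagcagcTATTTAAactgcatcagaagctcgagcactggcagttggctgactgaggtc
The AP-1 motif, TGANTCA, occurred at 1 place, with its first base 30 bases before the start, and 7.33% of 33469 RefSeq rat promoters of the same length hold it. The GATA motif, GATAAG, occurred at 2 places, beginning at positions -227 and -13, and is held by 7.05% of promoters. A TATA-like run, TATTTAA, began at position -1 and is held by 4.58%. The E-box CACGTG, held by 6.42% of promoters, and the consensus motif of NF-kappaB, held by 1.53%, were not among the letters of this window. None of the marked places overlap. These matches describe the letters only.

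Olr1 was 2.85 times as high after Vldlr knockdown. It had 78.31 and 79.84 CPM in si-Vldlr cells, against 31.81 and 23.69 CPM in si-Control_v. Both knockdown libraries were above all 10 other libraries of the table, and the means were 79.07 ± 1.08 and 27.75 ± 5.74 CPM (SD, n = 2 each). The log2 fold change was 1.49, a description only, since picking Olr1 on this contrast favours a large value. It was 1.29 to 1.70 when each of the 4 libraries was left out in turn, with the lowest value without si-Control_v replicate 2. That library had the highest share of mitochondrial transcripts of the table, 6.51%, against 2.26% to 4.92% in the other 11, and its part in the difference was not tested. All 8 cardiomyocyte markers were lower in si-Vldlr, summing to 14610 and 15270 CPM against 16270 and 20780 CPM in si-Control_v, and 1 of the 8 was higher without si-Control_v replicate 2. Smooth muscle and pericyte markers were the other way, with 6 of 7 higher and sums of 3660 and 3731 CPM in si-Vldlr cells against 3212 and 2733 CPM in si-Control_v, and 5 of 7 higher without si-Control_v replicate 2. Of 4 epicardial markers 3 were higher, with sums of 101.9 and 104.7 CPM in si-Vldlr cells against 94.53 and 92.42 CPM in si-Control_v. Macrophage and endothelial markers turned on si-Control_v replicate 2: 2 of 12 and 4 of 9 were higher with all libraries, and 8 of 12 and 7 of 9 without it. The part of these cell types was not tested.

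The level of Olr1 also differed among the control groups. The 6 group means of the 12-library table ran, from high to low, si-Vldlr at 79.07, Vldlr OE at 64.7, Control at 62.06, PBS at 45.15, Reelin at 42.36 and si-Control_v at 27.75 CPM. Libraries of neighbouring groups overlapped for Vldlr OE and Control and for PBS and Reelin, and the other neighbours were separate. The si-Vldlr mean was thus 1.27 times that of Control and 1.75 times that of PBS, and the Control mean was 2.24 times that of si-Control_v. These groups differ in culture time and in siRNA, protein or virus, which cannot be told apart from one another. In the separately normalised 4-library table, the other siRNA control, si-Control_t, had 30.03 and 31.21 CPM.

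**Figure D1:**
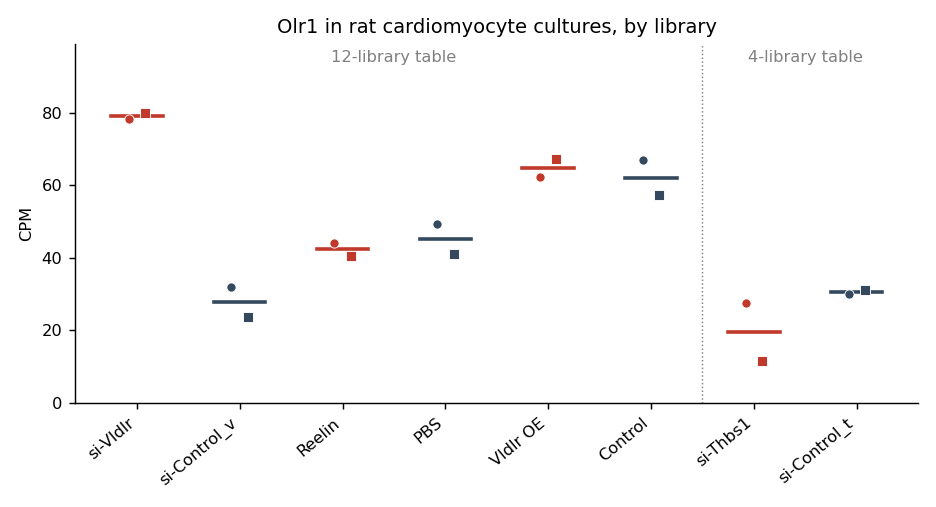
Olr1 in CPM (vertical axis) in each of the 16 rat libraries, by group (horizontal axis). Points are libraries (circle and square for numbers 1 and 2), bars are group means, red groups are treated and dark groups are controls, and the dotted line parts the 12-library and 4-library tables; the 2 si-Vldlr libraries, at 78.31 and 79.84 CPM, are the highest and si-Thbs1 replicate 2, at 11.53 CPM, is the lowest.

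No difference in Olr1 passed the test in the other rat comparisons. With Reelin it had 44.16 and 40.56 CPM, against 49.32 and 40.99 CPM with PBS, and the groups overlapped. The log2 fold change was -0.09 (95% interval -0.40 to 0.23; limma adjusted p = 1). With Vldlr OE it had 62.27 and 67.13 CPM, against 66.88 and 57.24 CPM in Control, again overlapping (0.06, interval -0.25 to 0.38; limma adjusted p = 0.983).

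Under knockdown of Thbs1, which encodes thrombospondin-1, the Olr1 libraries diverged. Olr1 had 27.54 and 11.53 CPM in si-Thbs1, against 30.03 and 31.21 CPM in si-Control_t. Both si-Thbs1 libraries lay below both controls, replicate 1 narrowly. The log2 fold change of -0.74 (interval -1.70 to 0.22) did not pass (limma adjusted p = 1). It was -0.15 without si-Thbs1 replicate 2 and -1.34 without si-Thbs1 replicate 1, so that replicate 2 set most of its size. Of the macrophage markers tested, 10 of 13 were lower in si-Thbs1, summing to 604.7 and 692.0 CPM against 733.0 and 704.9 CPM in si-Control_t, and none was called by limma while 3 had an unadjusted p under 0.05. Smooth muscle and pericyte markers were higher for 5 of 7, with 2 at an unadjusted limma p under 0.05 and none called. They summed to 2549 and 1253 CPM in si-Thbs1 against 1673 and 1184 CPM in si-Control_t. Of the endothelial markers 3 of 8 were higher. The part of these cell types was not tested.

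In mouse, Olr1 was low and differed widely within genotypes. The gene lies on build GRCm38 at chr6:129485244-129507165 on the minus strand, with 3572 bases of merged exons in GENCODE M21. It had 0.279, 0.638 and 1.11 CPM in Myh6-Cre;Vldlr f/f and 3.06, 0.793 and 0.407 CPM in Myh6-Cre;Vldlr f/+, against 0.231, 1.26 and 0.622 CPM in Vldlr f/f. All 3 genotypes overlapped, and Myh6-Cre;Vldlr f/+ replicate 1 stood highest. Relative to Vldlr f/f, the log2 fold change was -0.01 with Myh6-Cre;Vldlr f/f (interval -0.91 to 0.89) and 0.39 with Myh6-Cre;Vldlr f/+ (interval -0.51 to 1.29). That of Myh6-Cre;Vldlr f/f over Myh6-Cre;Vldlr f/+ was -0.40 (interval -1.30 to 0.50; limma adjusted p at least 0.997 in each). The first of these changed sign under median-ratio scaling, to 0.03, in a comparison where the median of all genes was -0.11.

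Per kilobase of exon, Olr1 was the lowest of the 6 genes in mouse. The median over the 9 libraries was 25.2 CPM per kilobase for Scarb2, 7.64 for Stab1, 6.86 for Scarb1, 2.93 for Colec12, 0.481 for Msr1 and 0.179 for Olr1. The ranges of these neighbours overlapped for Stab1 and Scarb1, Scarb1 and Colec12, and Msr1 and Olr1, and those of Scarb2 and Stab1 and of Colec12 and Msr1 were separate. No such scale was set for rat, where exon lengths of the authors' build were not used here.

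Msr1 encodes the class A macrophage scavenger receptor. It had 32.08 and 31.27 CPM in si-Vldlr cells against 31.36 and 36.03 CPM in si-Control_v, and 41.73 and 32.24 CPM with Reelin against 30.31 and 33.69 CPM with PBS. It had 25.33 and 28.97 CPM in Vldlr OE against 24.64 and 29.71 CPM in Control, and 23.96 and 24.81 CPM in si-Thbs1 against 25.36 and 30.13 CPM in si-Control_t. The 2 si-Thbs1 libraries were below both controls, with a log2 fold change of -0.17 (interval -0.56 to 0.21), and the other groups overlapped. In mouse it was 2.08 to 4.79 CPM in Myh6-Cre;Vldlr f/f, 3.01 to 4.98 CPM in Myh6-Cre;Vldlr f/+ and 2.96 to 5.95 CPM in Vldlr f/f.

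Stab1, the class H receptor stabilin-1 of macrophages and sinusoidal endothelium, ranged the most widely of the 6 genes over the 12 rat libraries, 4.01-fold, where Olr1 ranged 3.37-fold. With Reelin it had 14.32 and 17.72 CPM, against 10.81 and 9.697 CPM with PBS. Both Reelin libraries were above both PBS libraries, but the log2 fold change of 0.59 (interval -0.15 to 1.33) did not pass (limma adjusted p = 1). The sum of the 15 macrophage markers was 1193 and 1263 CPM with Reelin against 1054 and 1114 CPM with PBS, 11 of the 12 markers tested were higher, and none was called by limma or had an unadjusted p under 0.05. Their part in the Stab1 values was not tested.

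Stab1 in si-Vldlr was 7.929 and 9.358 CPM, against 8.887 and 17.3 CPM in si-Control_v, where replicate 2 was high. That control library also had the higher macrophage sum, 1099 CPM against 667.1 CPM in si-Control_v replicate 1, while the si-Vldlr libraries had 605.7 and 716.9 CPM. The Stab1 log2 fold change there was -0.48 with all libraries and -0.04 without si-Control_v replicate 2. The part of macrophages in these values was not tested. Stab1 was 4.425 and 9.339 CPM in Vldlr OE against 7.388 and 10.53 CPM in Control, and 6.579 and 10.4 CPM in si-Thbs1 against 10.84 and 9.417 CPM in si-Control_t, with overlap in both. In mouse it was 60.71 to 92.63 CPM in Myh6-Cre;Vldlr f/f, 62.94 to 97.11 CPM in Myh6-Cre;Vldlr f/+ and 68.91 to 117.8 CPM in Vldlr f/f.

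Colec12 encodes a class A receptor with a collagen-like stalk and a C-type lectin head, found on endothelial and stromal cells. It had 49.86 and 57.22 CPM in si-Thbs1, against 66.14 and 89.67 CPM in si-Control_t. The groups were separate, and the log2 fold change of -0.52 (interval -0.99 to -0.05) had the smallest unadjusted p of the 6 genes in any tested rat comparison, but it was not called (limma adjusted p = 0.831). It was -0.74 without si-Control_t replicate 1 and -0.30 without si-Control_t replicate 2. All 9 fibroblast markers tested were also lower in si-Thbs1, summing to 28120 and 34620 CPM against 33060 and 38460 CPM in si-Control_t. None of the 9 was called by limma, 2 had an unadjusted p under 0.05, and 6 of 9 were lower without si-Thbs1 replicate 1. Smooth muscle and pericyte markers went the other way, with 5 of 7 higher in si-Thbs1, and 3 of 8 endothelial markers were higher. The part of these cell types was not tested.

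In mouse, Colec12 was higher with Myh6-Cre;Vldlr f/+ than without Cre, though not past the test. It had 43.79, 29.73 and 25.59 CPM in Myh6-Cre;Vldlr f/+, against 23.63, 16.3 and 20.69 CPM in Vldlr f/f, and the 2 groups did not overlap. The log2 fold change was 0.66 (interval -0.04 to 1.36; limma adjusted p = 0.999). Myh6-Cre;Vldlr f/f, with 17.9, 26.18 and 39.05 CPM, overlapped both (0.38 against Vldlr f/f, limma adjusted p = 0.997). The fibroblast marker sum was 5751, 4485 and 3547 CPM in Myh6-Cre;Vldlr f/+ against 3115, 3040 and 4139 CPM in Vldlr f/f, with all 9 markers higher, none called by limma or edgeR, and 0 by limma and 1 by edgeR at an unadjusted p under 0.05. All 4 epicardial markers were higher too, with 2 at an unadjusted p under 0.05 in limma and none called. Their sums overlapped, at 350.3, 185.2 and 88.16 CPM in Myh6-Cre;Vldlr f/+ against 124.6, 66.5 and 50.27 CPM in Vldlr f/f. Endothelial markers were mixed, with 5 of 10 higher, and smooth muscle and pericyte markers were higher for 3 of 7. The part of these cell types was not tested.

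In the remaining rat groups Colec12 lay close to its controls. It had 61.72 and 59.21 CPM with Reelin against 57.34 and 57.69 CPM with PBS, both higher by a small margin. It had 59.97 and 62.6 CPM in si-Vldlr cells against 65.08 and 71.91 CPM in si-Control_v, and 78.66 and 65.22 CPM in Vldlr OE against 71.54 and 79.32 CPM in Control.

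Scarb1 and Scarb2 are class B receptors. SCARB1, or SR-B1, is the high density lipoprotein receptor for selective uptake of cholesteryl esters. Scarb1 had 77.79 and 75.11 CPM in si-Vldlr cells against 70.4 and 59.39 CPM in si-Control_v, and 67.84 and 72.48 CPM with Reelin against 64.35 and 70.28 CPM with PBS. It had 63.38 and 56.55 CPM in Vldlr OE against 55.12 and 59.66 CPM in Control, and 54.54 and 56.44 CPM in si-Thbs1 against 52.83 and 58.08 CPM in si-Control_t. Only the si-Vldlr libraries were separate from their control (log2 fold change 0.24 ± 0.10, SE). Leaving out si-Control_v replicate 1 gave 0.36, and leaving out si-Control_v replicate 2 gave 0.12. In mouse Scarb1 ranged from 33.89 to 83.43 CPM with overlap among the 3 genotypes.

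SCARB2, or LIMP-2, is a lysosomal membrane protein that carries glucocerebrosidase to lysosomes, and its gene was the most abundant of the 6 per kilobase in mouse. Scarb2 had 140.2 and 142.3 CPM in si-Vldlr cells against 131.0 and 131.9 CPM in si-Control_v, a small separate difference (0.10 ± 0.08, SE). It had 128.7 and 114.8 CPM with Reelin against 117.7 and 117.0 CPM with PBS, 98.18 and 103.6 CPM in Vldlr OE against 111.5 and 103.0 CPM in Control, and 123.4 and 158.6 CPM in si-Thbs1 against 141.1 and 172.5 CPM in si-Control_t, all overlapping. In mouse it spread from 89.08 to 254.6 CPM within Myh6-Cre;Vldlr f/f, from 72.86 to 174.0 CPM within Myh6-Cre;Vldlr f/+ and from 88.47 to 184.4 CPM within Vldlr f/f.

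**Figure D2:**
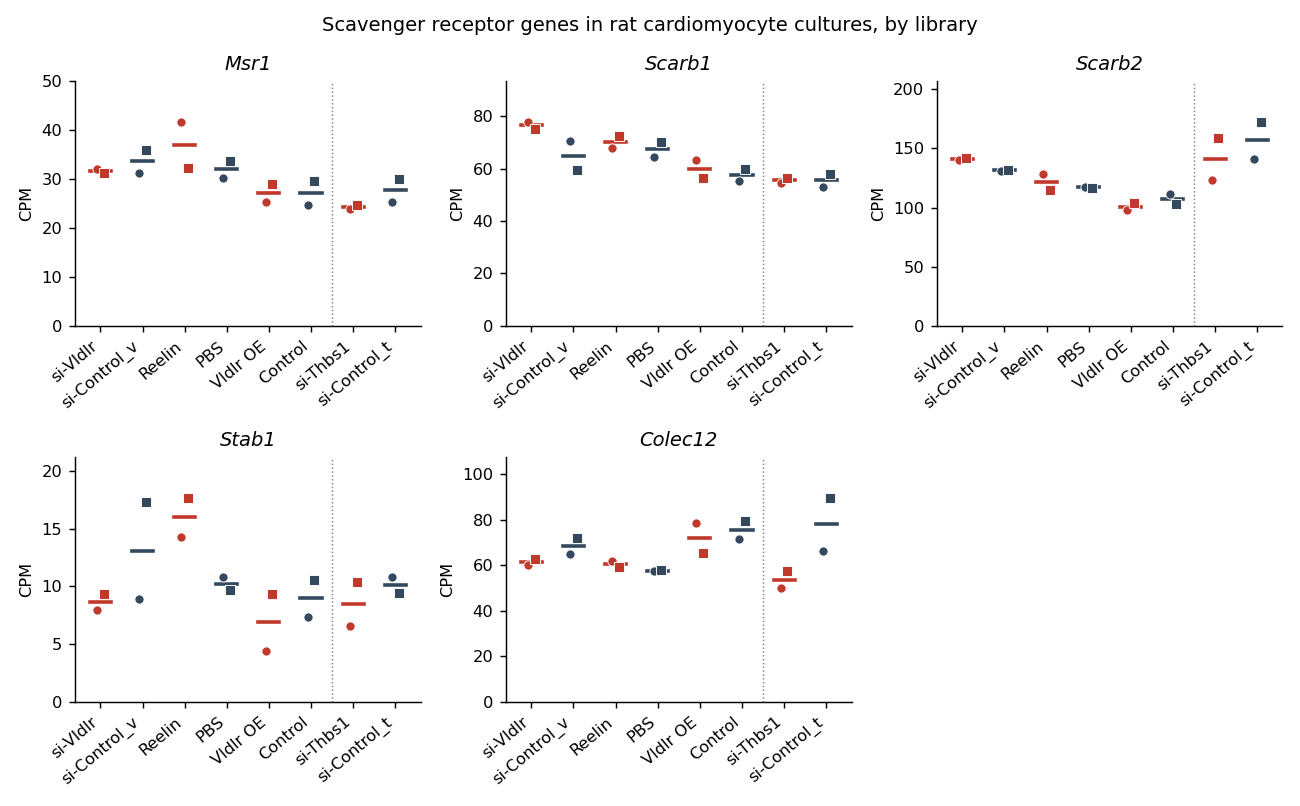
Msr1, Scarb1, Scarb2, Stab1 and Colec12 in CPM (vertical axes, each from 0) in the 16 rat libraries by group. Points are libraries, bars are group means, red groups are treated, dark groups are controls, and the dotted line parts the 2 tables; most pairs overlap, while Stab1 with Reelin (14.32 and 17.72 CPM) is above PBS and Colec12 in si-Thbs1 (49.86 and 57.22 CPM) is below si-Control_t.

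Groups of 2 libraries were often separate by this measure over all genes. With Reelin, 2 of the 6 (Colec12 and Stab1, both higher) did not overlap PBS, against 32.8% of all 13860 genes. In si-Thbs1 3 of the 6 (Colec12, Msr1 and Olr1, all lower) did not overlap, against 29.3% of 13416 genes, and in Vldlr OE none did, against 25.0%. In mouse only Colec12 in Myh6-Cre;Vldlr f/+ did not overlap Vldlr f/f, against 5.97% of 14922 genes. None did between Myh6-Cre;Vldlr f/f and Vldlr f/f (8.52% of all genes) or between the Cre genotypes (2.49%). In si-Vldlr, the contrast from which Olr1 was picked, Olr1, Scarb1 and Scarb2 were higher and Colec12 lower without overlap, and 48.5% of all genes did not overlap there.

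None of the 6 genes was called by limma in any of the 6 comparisons tested. The manipulated genes were not called there either. Vldlr had a limma adjusted p of 0.958 in Vldlr OE against Control. Relative to Vldlr f/f it had 0.997 in Myh6-Cre;Vldlr f/f and 0.999 in Myh6-Cre;Vldlr f/+. Thbs1 had a limma adjusted p of 0.821 in si-Thbs1. A missing call thus does not show that a gene was unchanged. Calls were rare, at 0.0144% of all genes with Reelin, 0.00722% in Vldlr OE, 0.0447% in si-Thbs1 and 0% in each mouse comparison, where edgeR's quasi-likelihood test also called 0 genes. For si-Vldlr, where the 6 genes were not tested, 0.0289% of all genes were called. Vldlr, the gene knocked down, was not among them (log2 fold change -0.52, interval -0.93 to -0.11; limma adjusted p = 0.348). At an unadjusted limma p under 0.05 there were 189 genes with Reelin, 626 with Vldlr OE and 741 with si-Thbs1. In mouse, relative to Vldlr f/f, there were 453 with Myh6-Cre;Vldlr f/f and 362 with Myh6-Cre;Vldlr f/+ (edgeR 344 and 349), and 138 when the Cre genotypes were set against each other (edgeR 140). Of the 6 genes only Colec12 in si-Thbs1 was among the limma genes, and only Colec12 in Myh6-Cre;Vldlr f/+ among the edgeR genes.

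**Figure D3:**
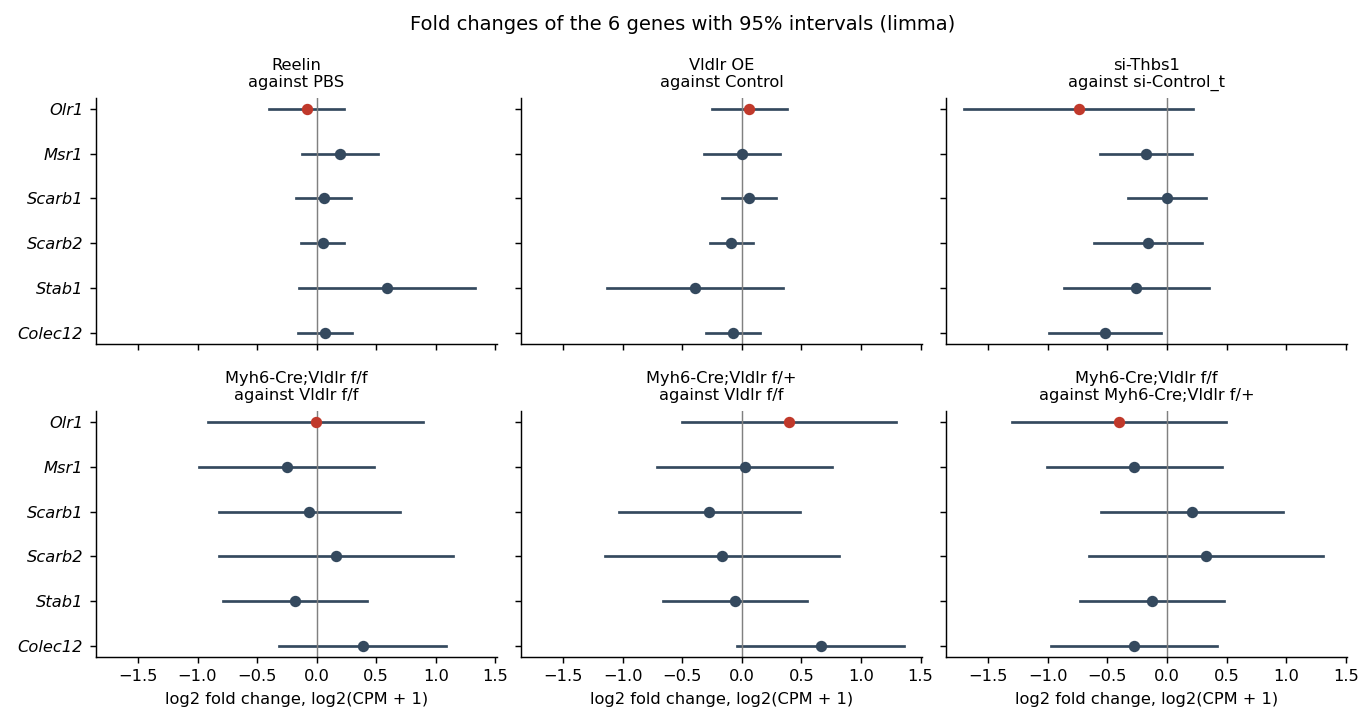
log2 fold changes (horizontal axes, log2(CPM + 1) scale) of the 6 genes (vertical axes) in the 6 comparisons tested, with 95% intervals from limma as lines; Olr1 is red. All intervals include 0 except that of Colec12 in si-Thbs1 (-0.99 to -0.05), and the mouse intervals are wider than those of the 12-library rat table for all genes except Stab1.

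**Figure D4:**
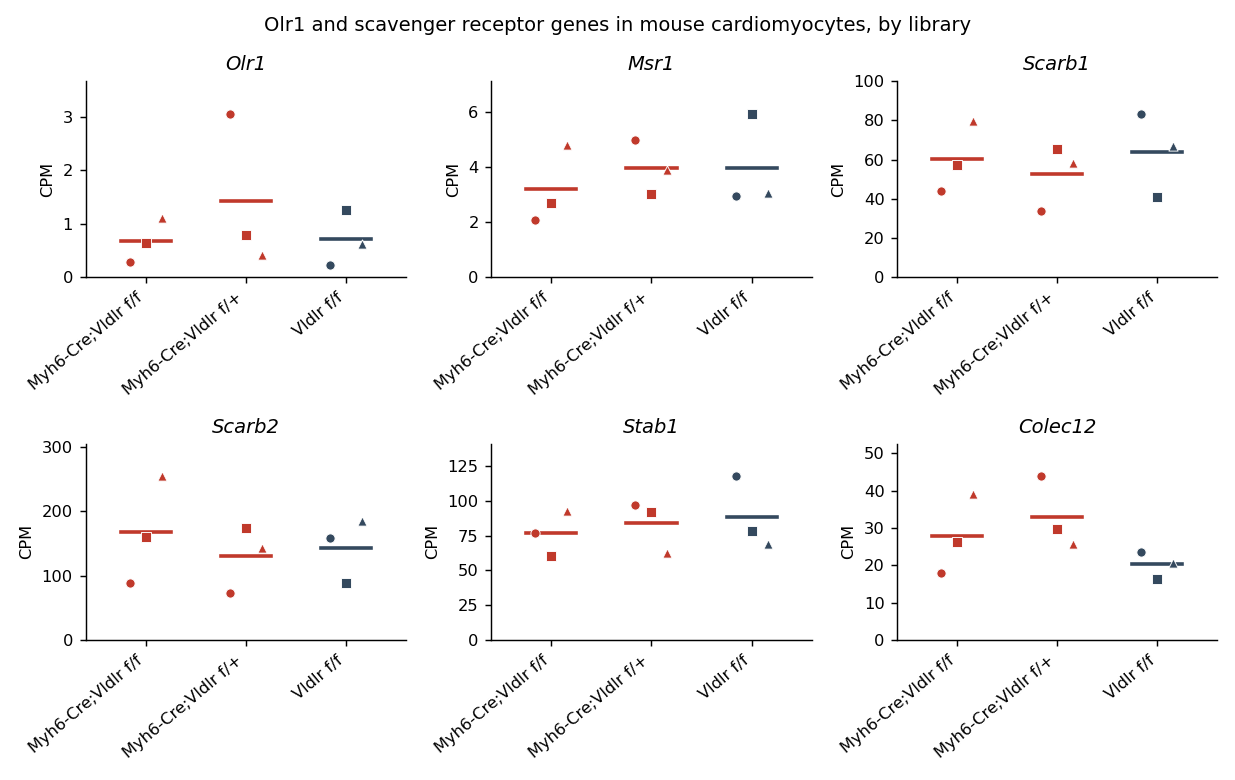
The 6 genes in CPM (vertical axes, each from 0) in the 9 mouse libraries by genotype. Points are libraries (circle, square and triangle for replicates 1, 2 and 3), bars are genotype means, red genotypes carry Cre and dark is Vldlr f/f; Olr1 stays at or below 3.06 CPM, and Colec12 in Myh6-Cre;Vldlr f/+ lies above Vldlr f/f.

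Genes that followed Olr1 most closely over the 12 rat libraries were Akap12 (r = 0.945), Plod2 (r = 0.92), Slc37a3 (r = 0.917), Uap1 (r = 0.893) and Ctbs (r = 0.878). These are Pearson correlations of log2(CPM + 1) over libraries that include si-Vldlr and si-Control_v, among 10278 genes, given as a description. Akap12, which encodes a scaffold for protein kinase A, had 99.75 and 86.15 CPM in si-Vldlr cells against 49.99 and 42.07 CPM in si-Control_v. Plod2, a lysyl hydroxylase that modifies collagen, had 907.5 and 825.5 CPM in si-Vldlr cells against 618.7 and 443.3 CPM in si-Control_v. Like Olr1, both were also higher in Control (77.94 and 70.23 CPM for Akap12, 955.2 and 775.8 CPM for Plod2) than in si-Control_v. Of the other 5 scavenger receptor genes, Stab1 (r = -0.605) and Msr1 (r = -0.512) had negative correlations, and Scarb1 (r = 0.0627), Scarb2 (r = -0.163) and Colec12 (r = 0.0409) had small ones. Vldlr itself had r = 0.144 with Olr1.

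**Figure D5:**
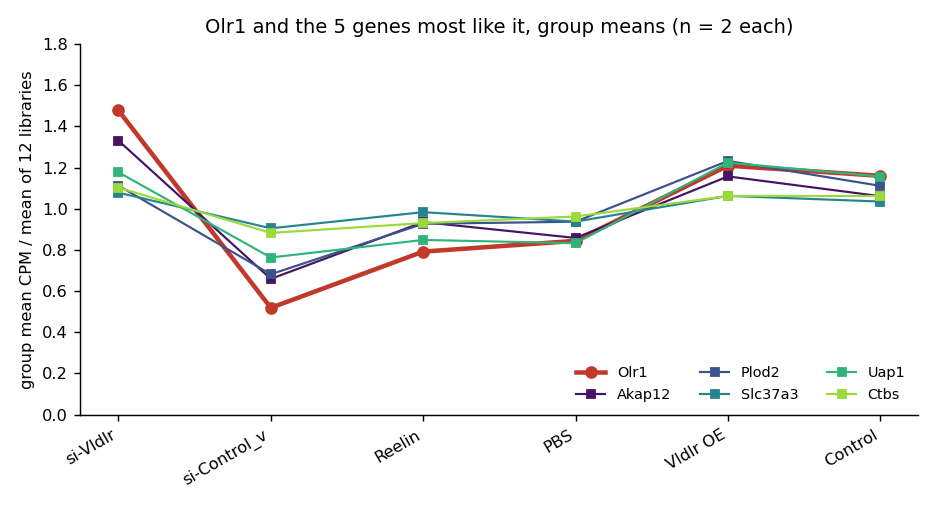
Group mean CPM divided by the mean of all 12 libraries (vertical axis) for Olr1 and the 5 genes most like it, by group of the 12-library rat table (horizontal axis, 2 libraries per group). Lines join the groups for reading only; all 6 genes are lowest in si-Control_v, and Olr1 has the widest range.

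In mouse the 5 genes most like Olr1 over 9 libraries were Fam120aos (r = 0.904), Platr25 (0.856), Sec61a2 (0.855), Crls1 (0.852) and Usp53 (0.849), none of which was on the rat list. Olr1 and these 5 genes were all highest in the same library, Myh6-Cre;Vldlr f/+ replicate 1, at 3.057, 13.68, 14.57, 40.13, 39.43 and 22.26 CPM in the order named, and the correlations were not computed without it. Scarb1 had r = -0.581 and Colec12 r = 0.594 with Olr1, and in that library Scarb1 was lowest and Colec12 highest of the 9.

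Genes that OLR1 signalling or NF-kappaB is known to induce were read from a list of 17, among them adhesion molecules, chemokines and Nfkb subunits. In si-Vldlr 9 of 16 tested were higher, with a median log2 fold change of 0.03 against -0.02 over all genes, given like the other si-Vldlr values with no test. Icam1, an adhesion molecule, had 160.3 and 176.7 CPM in si-Vldlr cells against 147.0 and 134.5 CPM in si-Control_v. In si-Thbs1 13 of 15 were lower, with a median of -0.42 against 0.03 over all genes; none was called by limma and 5 had an unadjusted p under 0.05. The fit that had the replicate block called 1 gene of the list, and 2 were called without si-Control_t replicate 1. Vcam1, an adhesion molecule, had 61.92 and 89.65 CPM in si-Thbs1 against 122.1 and 238.2 CPM in si-Control_t (log2 fold change -1.18, limma adjusted p = 0.640). Cxcl1, a chemokine, had 100.7 and 84.6 CPM in si-Thbs1 against 126.3 and 148.6 CPM in si-Control_t (-0.56, limma adjusted p = 0.585).

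In the other comparisons the same list showed no call. Of 16 tested, 9 were higher with Reelin (median 0.03, the median of all genes being 0.02; none called by limma or with an unadjusted p under 0.05). In Vldlr OE 12 of 16 were higher (median 0.09 against -0.03; again none called or with an unadjusted p under 0.05), but without Control column 2 this was 6 of 16 with a median of -0.07. Of 14 tested in mouse, 5 were higher in Myh6-Cre;Vldlr f/f and 6 in Myh6-Cre;Vldlr f/+ than in Vldlr f/f, and 4 were higher in Myh6-Cre;Vldlr f/f than in Myh6-Cre;Vldlr f/+. None was called by limma or edgeR, and 1 had an unadjusted p under 0.05 by each tool, in Myh6-Cre;Vldlr f/+. By limma this was Icam1, with 31.62, 14.75 and 25.52 CPM in Myh6-Cre;Vldlr f/+ against 12.93, 11.2 and 13.33 CPM in Vldlr f/f.

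Other scavenger receptors, a list of 13 that includes Cd36, Cd68 and Scarf2, were mixed. In si-Vldlr 5 of 9 tested were higher (median 0.01 against -0.02 over all genes). Cxcl16, a membrane chemokine that also binds oxidised lipoprotein, had 81.6 and 88.09 CPM in si-Vldlr cells against 65.65 and 59.26 CPM in si-Control_v, while Scarf2 had 86.06 and 87.59 CPM in si-Vldlr cells against 104 and 110.7 CPM in si-Control_v. In Vldlr OE 6 of 9 were higher, none was called by limma, and 2 had an unadjusted p under 0.05. These were Scarf1, an endothelial receptor for acetylated lipoprotein, at 15.1 and 16.63 CPM in Vldlr OE against 11.59 and 12.82 CPM in Control (0.35, limma adjusted p = 0.958), and Scara5, a ferritin receptor, at 79.68 and 74.12 CPM in Vldlr OE against 72.99 and 53.36 CPM in Control (0.30, limma adjusted p = 0.958). With Reelin 5 of 9 and in si-Thbs1 4 of 9 were higher, with none called by limma or with an unadjusted p under 0.05. In mouse 6 and 7 of 12 were higher in Myh6-Cre;Vldlr f/f and in Myh6-Cre;Vldlr f/+ than in Vldlr f/f, and 3 of 12 were higher in Myh6-Cre;Vldlr f/f than in Myh6-Cre;Vldlr f/+. None of these was called by limma or edgeR. None had an unadjusted p under 0.05 by limma, and 1 did by edgeR, in Myh6-Cre;Vldlr f/+.

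Lipoprotein uptake and efflux genes, a list of 15 with Vldlr, Lpl and Apoe among them, had no call by limma in any comparison tested or by edgeR in mouse, except 1 in Vldlr OE without Control column 1. In si-Vldlr 9 of 14 were higher (median 0.05 against -0.02 over all genes). Npc2, which moves cholesterol out of lysosomes, had 392.8 and 408.6 CPM in si-Vldlr cells against 280.8 and 301.4 CPM in si-Control_v. Apoe, an apolipoprotein that VLDLR binds, had 329.2 and 376.7 CPM in si-Vldlr cells against 446.8 and 703.9 CPM in si-Control_v. The 703.9 CPM were in si-Control_v replicate 2, which also had the higher macrophage sum, 1099 CPM against 667.1 CPM in replicate 1. The part of that library and of macrophages was not tested. In si-Thbs1 Apoe was below its control too, with 478.2 and 539.6 CPM against 664.1 and 679.8 CPM in si-Control_t (log2 fold change -0.40, limma adjusted p = 0.755). In mouse Nr1h3, the liver X receptor alpha, had 2.274, 2.488 and 3.318 CPM in Myh6-Cre;Vldlr f/f and 3.374, 2.248 and 1.894 CPM in Myh6-Cre;Vldlr f/+, against 6.661, 4.924 and 3.051 CPM in Vldlr f/f. These log2 fold changes of -0.63 and -0.72 did not pass (limma adjusted p = 0.997 and 0.999). The other rat comparisons had 8 of 14 higher with Reelin, 6 of 14 in Vldlr OE and 8 of 14 in si-Thbs1. At an unadjusted p under 0.05 limma had 0 with Reelin, 1 in Vldlr OE and 1 in si-Thbs1. The 1 in Vldlr OE was Vldlr, the manipulated gene itself, and that in si-Thbs1 was Apoe. In mouse limma and edgeR each had 1 in Myh6-Cre;Vldlr f/f and 2 in Myh6-Cre;Vldlr f/+ when set beside Vldlr f/f, with 6 of 15 genes higher in each. By limma these were the floxed gene Vldlr itself in Myh6-Cre;Vldlr f/f, and Nr1h3 and Vldlr in Myh6-Cre;Vldlr f/+. Of Myh6-Cre;Vldlr f/f relative to Myh6-Cre;Vldlr f/+ both tools had 0, and 8 of 15 were higher.

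A list of 9 genes of the C-type lectin cluster around Olr1 showed no call by limma in any comparison tested or by edgeR in mouse. At an unadjusted p under 0.05, 1 (Clec9a in Myh6-Cre;Vldlr f/f relative to Vldlr f/f) passed in limma, and 1 passed in edgeR, in the same comparison. In si-Vldlr 3 of 4 measured above the filter were higher (median 0.26 against -0.02 over all genes). Gabarapl1, an autophagy gene, had 87.85 and 98.49 CPM in si-Vldlr cells against 67.28 and 74.46 CPM in si-Control_v. Clec2d, a ligand of a natural killer cell receptor, had 1.15 and 1.227 CPM in si-Vldlr cells against 0.6578 and 0.4685 CPM in si-Control_v. Outside si-Vldlr only Control column 1 reached the 1 CPM of the filter, with 1.041 CPM of Clec2d. Clec2d thus entered the 3 of 4, and the median, through the group where it was higher. Clec7a, the beta-glucan receptor dectin-1, had 27.18 and 21.1 CPM with Reelin against 19.39 and 23.5 CPM with PBS, and 7.942 and 12.68 CPM in si-Thbs1 against 10.27 and 17.49 CPM in si-Control_t. In mouse Clec9a, a dendritic cell receptor for dead cells, had 0.3228, 1.927 and 2.312 CPM in Myh6-Cre;Vldlr f/f against 5.334, 6.605 and 4.769 CPM in Vldlr f/f. The groups did not overlap, and the log2 fold change of -1.48 (interval -2.50 to -0.46) did not pass (limma adjusted p = 0.997). Myh6-Cre;Vldlr f/+ had 3.541, 1.322 and 6.635 CPM of Clec9a and overlapped both.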

How the data were processed

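Levels are the authors' deposited CPM in 3 tables; every column sums to the same total, so no composition factor is left. Per the submitters' processing notes, which give no roles, the tools were edgeR 3.20.9, StringTie 1.3.4 and HISAT2 2.1.0 and the builds mm10 and rn6; annotation releases and the mouse cell preparation are not given in these sources. CPM values were whole multiples of a step (within 0.05 steps) for 100% of mouse and 99.115% to 99.253% of rat values, so edgeR 4.0.16 (quasi-likelihood) was run on mouse steps only, as an added alternative; a step need not be a read. Columns were matched to samples by name except the 2 Control columns. Duplicated row names (4 rows per table) were left out.

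In R 4.3.3, limma 3.58.1 with its trend option was fitted to log2(CPM + 1) of genes with at least 1 CPM in 2 (rat) or 3 (mouse) libraries. Each table was fitted with all its groups, Benjamini-Hochberg adjustment ran over all genes, and calls were made at 0.05. The fit was run on simulated data with independent noise for each gene and library. Such data cannot show how the fit handles paired libraries or 1 deviant library. The members and lists were chosen with earlier results of these data known. Named genes were the 6 members, the manipulated genes, up to 2 members per list and comparison with the smallest p, and the 5 genes most correlated with Olr1 (mean of at least 5 CPM, no predicted or clone identifiers); of these the text gives some, and some are not reported here.

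Same-numbered libraries of the 2 Cre genotypes deviated together (r = 0.459, 0.439 and 0.333), but no label says that the numbers pair libraries. The main fit had no replicate block, so its intervals between the Cre genotypes take no account of such pairing. Against Vldlr f/f the same measure was -0.545 to 0.0553. In rat the same measure was 0.409 for si-Thbs1 and si-Control_t, 0.156 for si-Vldlr and si-Control_v, and -0.0632 for Reelin and PBS. With 2 libraries per rat group both numbers give the same value, so pairing could be neither shown nor excluded. The rat row Olr1 was read as the gene with identifier 140914; an olfactory receptor gene lists Olr1 as a synonym, but the rat tables hold the row Olr1l, which RefSeq gives to that receptor, at no more than 0.0209 CPM.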

Additional observations from a re-analysis of the deposited data

How the results depend on the processing

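Of the 428 values of the 6 genes under the alternatives, 41 changed sign. Another 1, Scarb2 in si-Vldlr at 0.13 under median-ratio scaling, moved beyond the replicate spread. The other 386 kept their direction and, where a test was kept, their side of the threshold. In si-Vldlr, with no test, they moved by less than the replicate spread. Leaving out 1 of 2 libraries cannot move a value further than that spread. The replicate block and fits of fewer groups leave a fold change as it is, so the 386 are no measure of robustness. None of the 368 with a test passed. The smallest adjusted p from limma was 0.0841, for Colec12 in si-Thbs1 with the replicate block. The cause of the sign changes was not tested.

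Under median-ratio scaling Scarb1 in si-Thbs1 was -0.025, and with Myh6-Cre;Vldlr f/f relative to Vldlr f/f Olr1 was 0.034 and Scarb1 0.061; in edgeR on mouse steps, an alternative chosen after seeing the data, they were 0.033 and 0.047. Leaving out 1 library at a time gave, for Msr1 in si-Vldlr, -0.18 to 0.014. With Reelin it gave -0.22 to 0.045 for Olr1, -0.0032 to 0.12 for Scarb1 and -0.032 to 0.13 for Scarb2. With Vldlr OE it gave -0.048 to 0.17 for Olr1, -0.13 to 0.13 for Msr1, -0.020 to 0.14 for Scarb1, -0.86 to 0.072 for Stab1 and -0.20 to 0.062 for Colec12. With si-Thbs1 it gave -0.065 to 0.070 for Scarb1, -0.34 to 0.023 for Scarb2 and -0.55 to 0.037 for Stab1. With Myh6-Cre;Vldlr f/f relative to Vldlr f/f it gave -0.22 to 0.17 for Olr1, -0.51 to 0.015 for Msr1, -0.34 to 0.16 for Scarb1, -0.20 to 0.55 for Scarb2 and -0.34 to 0.040 for Stab1. With Myh6-Cre;Vldlr f/+ relative to Vldlr f/f it gave -0.12 to 0.29 for Msr1, -0.56 to 0.0093 for Scarb1, -0.48 to 0.20 for Scarb2 and -0.22 to 0.16 for Stab1. Between the Cre genotypes it gave -0.071 to 0.41 for Scarb1, -0.039 to 0.72 for Scarb2 and -0.32 to 0.032 for Stab1.

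The count of all genes called, at 4 in si-Vldlr, 2 with Reelin, 1 in Vldlr OE and 6 in si-Thbs1, moved more. With the 2 compared groups alone it was 8, 13 and 8 for the first 3 and 1 with Myh6-Cre;Vldlr f/f relative to Vldlr f/f; with no filter it was 4 for Vldlr OE and 0 for si-Thbs1. Leaving out 1 library gave 4 to 167 for si-Vldlr (highest without si-Control_v replicate 1), 4 to 9 for Reelin, 2 to 257 for Vldlr OE (257 without Vldlr OE replicate 2, 80 without Control column 1), 15 to 268 for si-Thbs1 (highest without si-Control_t replicate 1), and 0 to 1 when either Cre genotype was set beside Vldlr f/f.

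With the replicate block 43 genes were called for si-Thbs1, 1 of them in the list of OLR1 and NF-kappaB genes, and the block changed no call of the 6 genes. Of the 28 medians of the 4 gene lists in the 7 comparisons, 18 changed sign when some 1 library was left out. Fitted alone with the block, also chosen after seeing the data, the 2 Cre genotypes gave 0 calls. No paired analysis was possible for Vldlr OE because its Control columns carry no label numbers. Mouse Olr1 gave no value in some fits of fewer libraries, where it no longer passed the filter. Mouse Olr1 stood at 16 to 202 steps per library, and what that is in reads is not known.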
